A study of Arabidopsis thaliana with 12 samples.

Results

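The 10 genes of nitrate transport and nitrate reduction described here were followed through 4 comparisons of Arabidopsis thaliana root tips. They were taken by locus code from the 33557 genes that the deposited tables list. The rule names the codes and uses no measured value, but the 10 genes were chosen with earlier results of these data known. Of the 10 genes, 7 code for transport: NRT1.1 (AT1G12110), NRT2.1 (AT1G08090), NRT2.2 (AT1G08100), NRT2.4 (AT5G60770), the NRT2 partner NRT3.1 (AT5G50200), NRT1.5 (AT1G32450) and NRT1.8 (AT4G21680). The other 3 code for reduction, the nitrate reductases NIA1 (AT1G77760) and NIA2 (AT1G37130) and the nitrite reductase NIR1 (AT2G15620). In the TAIR10 coordinates of the tables, 6 of the 10 lie on chromosome 1: NRT1.1 at chr1:4105233-4109545, NRT1.5 at chr1:11715150-11719970, NIA1 at chr1:29235803-29239445, NIA2 at chr1:14158527-14161938, and the neighbours NRT2.1 and NRT2.2, whose positions are given further on. NIR1 lies at chr2:6810476-6812939, NRT1.8 on chromosome 4, NRT2.4 at chr5:24444396-24447026 and NRT3.1 at chr5:20436180-20437726.

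The 12 RNA-seq samples fall into 4 groups of 3, which are line 6-6 on NaCl, line 6-6 on MS, wild type (WT) on NaCl and WT on MS. All seedlings had grown for 8 days under 16 h of light and 8 h of dark at 22 °C and were then kept for 24 h on diluted (1/2) Murashige and Skoog (MS) medium, to which NaCl was added for the salt groups, and root tips of about 1 cm were cut. The labels do not say what 6-6 is, how many independent lines or plants stand behind it or whether the 3 samples of a group were separate cultures. No source used here gives the concentration of NaCl. The extraction note speaks of seedlings, while the tissue label is root. ITPK4, the inositol phosphate kinase gene named in the series title, had 2.75 FPKM in 6-6 NaCl and 27.7 FPKM in WT NaCl in the authors' deposited table (log2 ratio -3.33, q = 0.00186), and 2.95 FPKM in 6-6 MS and 24.9 FPKM in WT MS (log2 ratio -3.08, q = 0.00396). It was thus low but not at 0 in the groups labelled 6-6.

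FPKM counts fragments scaled to transcript length and library size, so genes can be set side by side. The authors deposited 1 FPKM per group and gene, with the 3 samples already combined. No value per sample was used here, so no SD can be given, the depth of each sample is unknown, and a difference is set against the spread between samples only through the authors' own test. A gene was called changed where the authors' q-value, their p-value adjusted over all tested genes of a table, was below 0.05. Since the tissue was sequenced in bulk, fewer cells of a type and less RNA per cell cannot be told apart in any value given here.

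Plants take nitrate from the soil with 2 kinds of root carrier. NRT1.1 works at high and at low nitrate and also senses it, whereas the NRT2 carriers work at low nitrate and need the small membrane protein NRT3.1 (also called NAR2.1) to function. Inside the root, NRT1.5 loads nitrate into the xylem for transport to the shoot, and NRT1.8 takes nitrate back out of the xylem sap. Nitrate that stays in a cell is reduced to nitrite by NIA1 and NIA2 in the cytosol, and nitrite is reduced to ammonium by NIR1 in plastids. NRT1.8 is known to be induced, and NRT1.5 repressed, by several stresses.

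With NaCl, 6 of the 10 genes rose and 1 fell in each line, and the same 7 genes were called in both. NRT2.1 and NRT1.8 rose most, NRT3.1, NIA1, NIA2 and NIR1 rose 1.89- to 2.7-fold, NRT1.5 fell, and NRT1.1 was not called. In 6-6 this was 7 of 8 tested genes, against 24.1% of all 19705 tested genes called in either direction, 13.7% higher and 10.4% lower. In WT it was again 7 of 8, against 21.8% of 19798 tested genes, 11.3% higher and 10.5% lower. NRT2.2 and NRT2.4 are marked as not tested in every table. The median log2 ratio of the 8 tested genes was 1.11 in 6-6 and 1.12 in WT, and that of all tested genes was 0.03 in 6-6 and 0.01 in WT. The authors' p-values go no lower than 5e-05, a value shared by all 7 called genes in both salt comparisons and by 2055 tested genes in WT, so q does not rank these genes. With the deposited test statistic taken as a normal deviate instead, all 7 stayed called in each line, against 10.1% of all tested genes in 6-6 and 8.44% in WT. Where a log2 ratio of at least 1 in size was also required, 6 stayed called in 6-6 and 4 in WT, against 6.41% of all tested genes in 6-6 and 4.93% in WT.

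**Figure D1:**
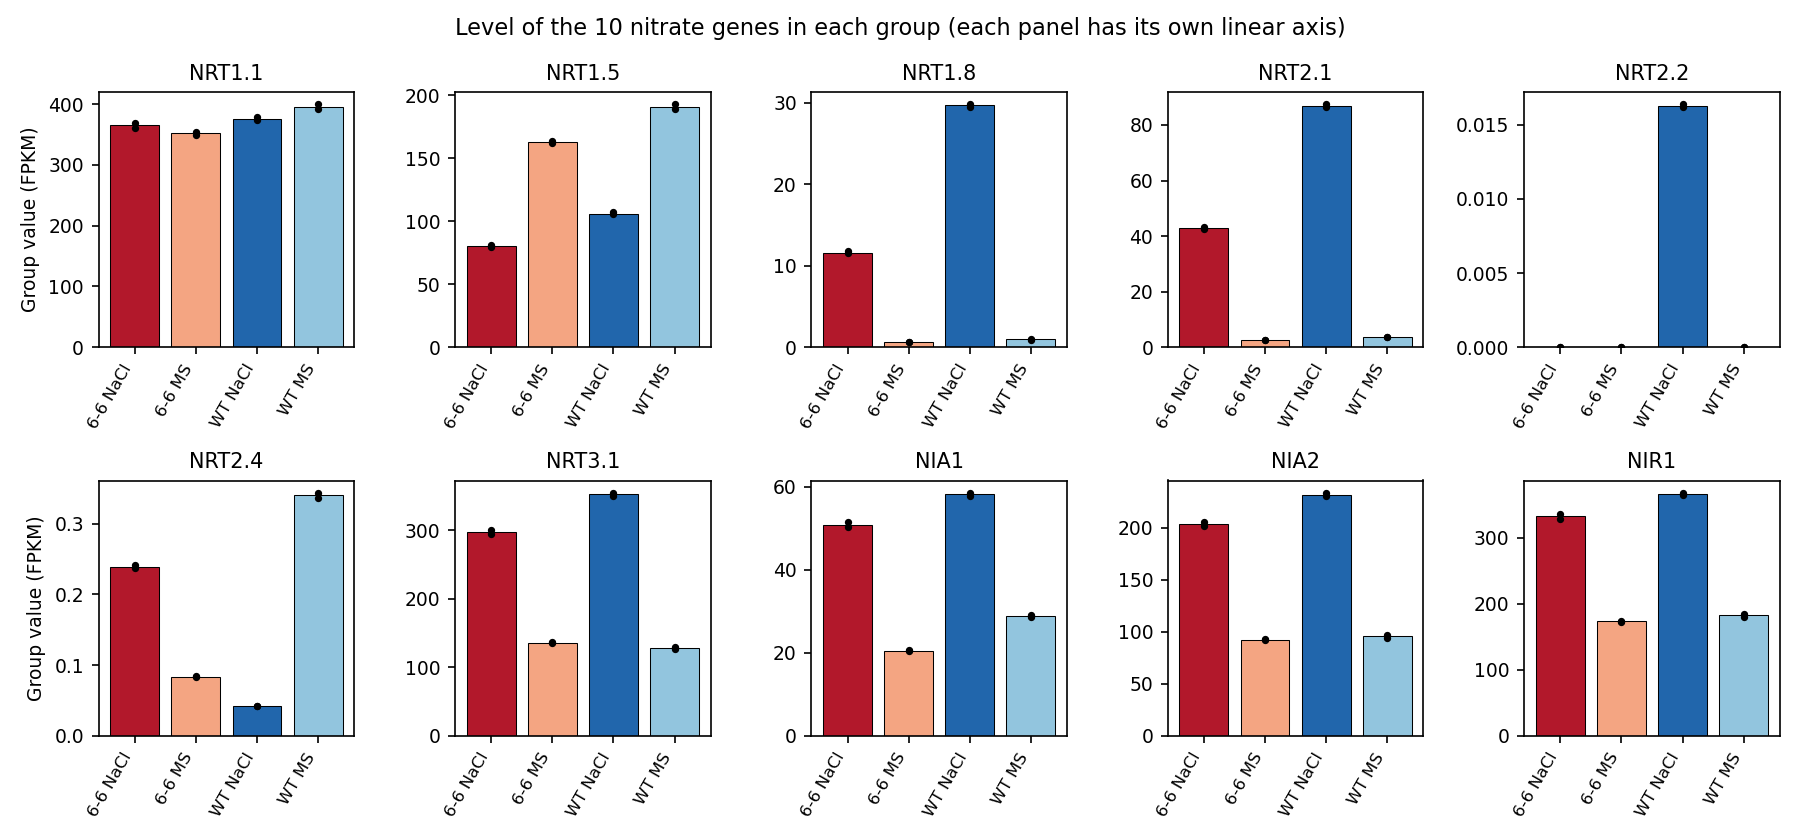
Level of each of the 10 genes in FPKM (linear axis from 0, 1 panel per gene with its own scale) in 6-6 NaCl, 6-6 MS, WT NaCl and WT MS. A bar is the mean of the values in the 2 deposited tables that hold the group and the dots are those 2 values, which are no replicates; NRT2.1 and NRT1.8 stand low on MS, at 2.57 to 3.62 FPKM and 0.679 to 0.947 FPKM, and NRT2.2 stays at or below 0.0164 FPKM in every group.

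Of the uptake genes, NRT1.1 had the highest level of the 10 in every group. It had 361 FPKM in 6-6 NaCl and 354 FPKM in 6-6 MS in the authors' deposited table, a log2 ratio of 0.03 (q = 0.918). In WT it had 374 FPKM on NaCl and 400 FPKM on MS in the authors' deposited table, a log2 ratio of -0.10 (q = 0.596). The 4 groups thus lay within 350 to 400 FPKM, and neither comparison was called.

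NRT2.1, the main high-affinity uptake carrier of the root, rose 16.3-fold in 6-6 and 23.8-fold in WT. In 6-6 it had 42.4 FPKM on NaCl and 2.6 FPKM on MS in the authors' deposited table (log2 ratio 4.03, q = 0.000441). In WT it had 86.4 FPKM on NaCl and 3.62 FPKM on MS in the authors' deposited table (log2 ratio 4.57, q = 0.000482). Both salt groups stood far above both MS groups, and the 6-6 salt group stood near the middle between 0 and the WT salt group. A higher salt ratio than that of NRT2.1 was found in 60 of 19663 tested genes with a finite ratio in 6-6, and in 33 of 19770 in WT.

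NRT2.2 lies next to NRT2.1 on chromosome 1 as a close copy and was listed at 0 FPKM in 6-6 NaCl, 6-6 MS and WT MS, and at 0.0162 FPKM in WT NaCl. The value of this gene has to be read with its sequence. In TAIR10 coordinates the deposited loci are chr1:2524076-2526164 for NRT2.1 and chr1:2527170-2529120 for NRT2.2. In the RefSeq annotation of TAIR10.1, which has the same nuclear chromosomes, NRT2.1 runs on the plus strand and NRT2.2 on the minus strand, with 847 bases between their ends. Their coding sequences matched in 1403 of 1593 aligned columns, or 88.1%. Of the 50-base words in the NRT2.1 transcript, 174 of 2062 (8.44%) also occurred in NRT2.2, which is 10.5% of the 1660 words of NRT2.2, whereas the other 8 genes shared no 50-base word with any other gene. A read lying wholly within such a stretch cannot by itself be placed on 1 of the 2 genes. No source used here says how such reads were counted. The other words of NRT2.2 occurred in no other gene. The longest identical stretch of the 2 coding sequences, shown here because it is where the 2 genes cannot be told apart, spans 170 bases (chr1:2524520-2524689 on the plus strand in NRT2.1, coding bases 382 to 551, and chr1:2528534-2528703 on the minus strand in NRT2.2, coding bases 376 to 545; RefSeq, TAIR10.1), with no capitals because no base differs.
NRT2.1 and NRT2.2: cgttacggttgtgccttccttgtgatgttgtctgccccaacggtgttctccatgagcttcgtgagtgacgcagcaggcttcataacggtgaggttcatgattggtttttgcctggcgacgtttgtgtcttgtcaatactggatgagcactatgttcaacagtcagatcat

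NRT2.4, a carrier known for expression in nitrogen-starved roots, stayed below 1 FPKM. It had 0.237 FPKM in 6-6 NaCl and 0.0839 FPKM in 6-6 MS, and 0.0416 FPKM in WT NaCl and 0.344 FPKM in WT MS in the authors' deposited tables. The order of NaCl and MS differed between the lines, but the authors tested none of these values, and no direction is drawn from them.

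NRT3.1, without which NRT2.1 does not reach the plasma membrane, rose in both lines from a level already well above that of NRT2.1. In 6-6 it had 294 FPKM on NaCl and 137 FPKM on MS in the authors' deposited table, a 2.15-fold difference (log2 ratio 1.11, q = 0.000441). In WT it had 350 FPKM on NaCl and 130 FPKM on MS in the authors' deposited table, a 2.7-fold difference (log2 ratio 1.43, q = 0.000482). The carrier and its partner therefore rose together, by unequal folds.

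The 2 xylem genes were called in opposite directions in both lines. NRT1.5, the loader, had 79.3 FPKM in 6-6 NaCl and 164 FPKM in 6-6 MS in the authors' deposited table (log2 ratio -1.05, q = 0.000441). In WT it had 106 FPKM on NaCl and 193 FPKM on MS in the authors' deposited table (log2 ratio -0.87, q = 0.000482). Both salt groups lay below both MS groups.

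NRT1.8, which retrieves nitrate from the xylem, had 11.5 FPKM in 6-6 NaCl and 0.687 FPKM in 6-6 MS in the authors' deposited table (16.7-fold, log2 ratio 4.07, q = 0.000441). In WT it had 29.5 FPKM on NaCl and 0.947 FPKM on MS in the authors' deposited table (31.1-fold, log2 ratio 4.96, q = 0.000482). A higher salt ratio was found in 57 of 19663 tested genes in 6-6, and in 28 of 19770 in WT. Because its MS levels were below 1 FPKM, its fold depends on how low values are treated: on the log2(FPKM + 1) scale the difference was 2.89 in 6-6 and 3.97 in WT.

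The deposited locus of NRT1.8 (chr4:11511115-11519765, TAIR10) is shared with CPL1 (AT4G21670), a phosphatase gene on the other strand, and the RefSeq genes overlap by 44 bases. No source used here says whether strand was used in counting. CPL1 was not called in any of the 4 comparisons: it had 7.74 FPKM in 6-6 NaCl and 7.03 FPKM in 6-6 MS, and 8.31 FPKM in WT NaCl and 8.42 FPKM in WT MS in the authors' deposited tables. Its level thus stayed within 6.94 to 8.42 FPKM over all tables, while that of NRT1.8 spanned 0.679 to 29.8 FPKM.

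The 2 xylem genes were also set as a ratio. The ratio of the NRT1.8 level to the NRT1.5 level was 0.145 in 6-6 NaCl and 0.0042 in 6-6 MS, and 0.279 in WT NaCl and 0.0049 in WT MS. NRT1.5 thus remained the more abundant transcript in every group. This ratio comes from 1 value per group and was not tested. None of 6 xylem and stele markers (SHR, PHO1, VND7, XCP1, XCP2, CESA7) was called with salt in either line by the authors' test, with 1 at an unadjusted p below 0.05 in 6-6 and 0 in WT, and 0 in both when the statistic of that test was taken as a normal deviate and adjusted anew. Their summed level was 376 FPKM in 6-6 NaCl and 364 FPKM in 6-6 MS, and 434 FPKM in WT NaCl and 420 FPKM in WT MS.

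**Figure D2:**
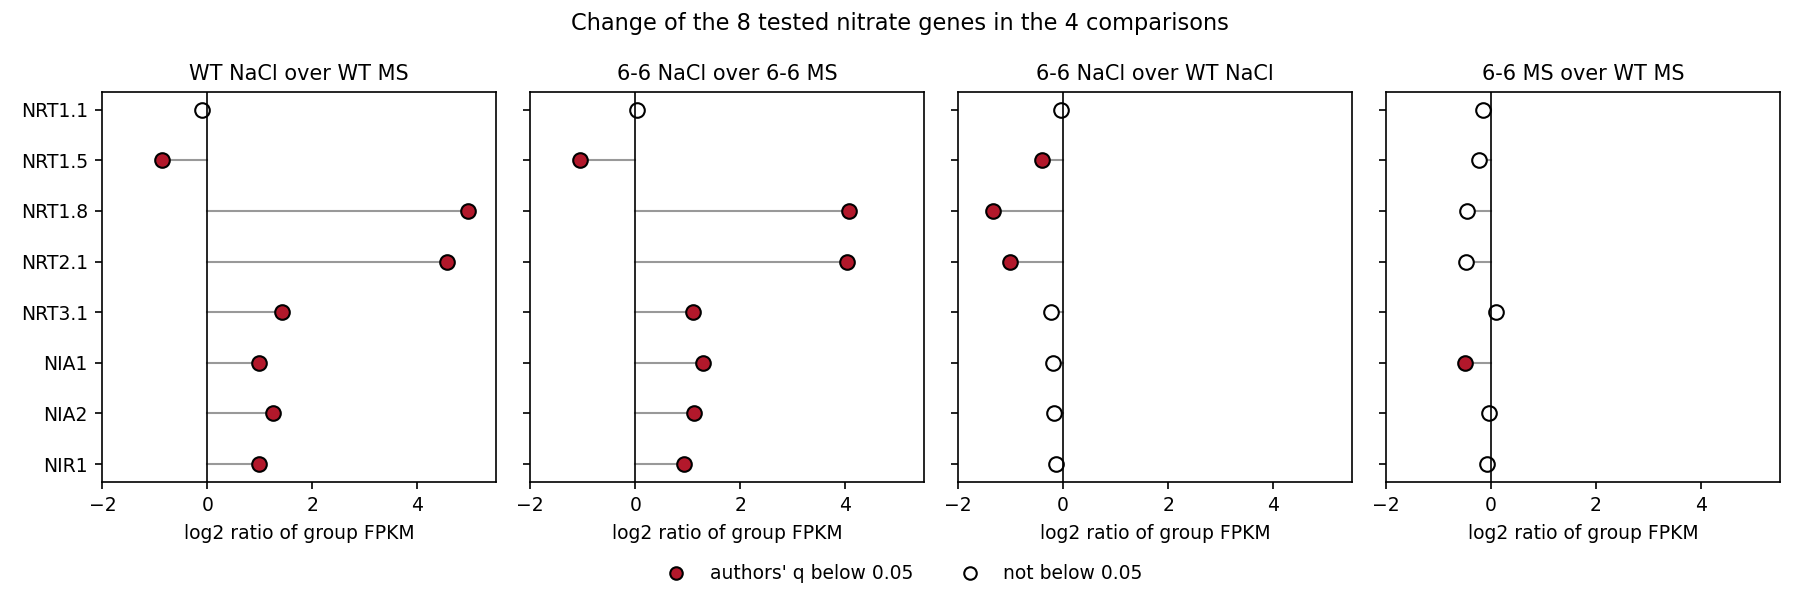
Log2 ratio of the FPKM of the 8 tested genes in the 4 comparisons (6-6 NaCl or WT NaCl over the same line on MS, and 6-6 over WT on either medium), filled where the authors' q is below 0.05. The salt ratios of NRT1.8 and NRT2.1 lie at 4.03 to 4.96, the other called salt rises at 0.92 to 1.43, and NRT1.5 at -0.87 and -1.05.

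All 3 reduction genes rose in both lines. NIA1 had 50.4 FPKM in 6-6 NaCl and 20.6 FPKM in 6-6 MS in the authors' deposited table (log2 ratio 1.29, q = 0.000441), and 57.9 FPKM in WT NaCl and 29.1 FPKM in WT MS (log2 ratio 0.99, q = 0.000482). NIA2, known to carry most nitrate reductase activity of the seedling, had 202 FPKM in 6-6 NaCl and 93 FPKM in 6-6 MS in the authors' deposited table (log2 ratio 1.12, q = 0.000441), and 231 FPKM in WT NaCl and 96.5 FPKM in WT MS (log2 ratio 1.26, q = 0.000482). NIA2 was the more abundant of the 2 reductases in every group. NIR1 had 328 FPKM in 6-6 NaCl and 174 FPKM in 6-6 MS in the authors' deposited table (log2 ratio 0.92, q = 0.000441), and 364 FPKM in WT NaCl and 184 FPKM in WT MS (log2 ratio 0.98, q = 0.000482). The reduction genes thus rose 1.89- to 2.44-fold, and for each of them both salt groups lay above both MS groups.

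By mean level over the 2 tables that hold a group, the order in WT NaCl was NRT1.1 (376 FPKM), NIR1 (366 FPKM), NRT3.1 (353 FPKM), NIA2 (232 FPKM), NRT1.5 (106 FPKM), NRT2.1 (86.9 FPKM), NIA1 (58.3 FPKM), NRT1.8 (29.7 FPKM), NRT2.4 and NRT2.2. In WT MS, NRT1.5 came next to NRT1.1 with 191 FPKM, and NRT2.1 stood below NIA1 at 3.59 FPKM. In 6-6 NaCl, NRT2.1 with 42.9 FPKM stood just below NIA1 with 50.9 FPKM. With 1 value per group it cannot be said which neighbours in these orders differ beyond their spread.

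Between the lines on NaCl, the 2 genes with the highest salt ratios were lower in 6-6, and so was NRT1.5. NRT1.8 had 11.8 FPKM in 6-6 NaCl and 29.8 FPKM in WT NaCl in the authors' deposited table, a log2 ratio of -1.34 (q = 0.00186). NRT2.1 had 43.3 FPKM in 6-6 NaCl and 87.5 FPKM in WT NaCl in the authors' deposited table, a log2 ratio of -1.01 (q = 0.00186). For NRT1.8, 79 of 19751 tested genes with a finite ratio had a lower ratio, and for NRT2.1 156 did.

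NRT1.5 had 81.1 FPKM in 6-6 NaCl and 107 FPKM in WT NaCl in the authors' deposited table, a log2 ratio of -0.40 (q = 0.00186). Its call was lost when the deposited statistic was taken as a normal deviate and adjusted anew, which left 2 called genes, against 1.04% of all tested genes. In all, 3 of 8 tested genes were lower and 0 were higher in 6-6, against 3.67% lower, 3.04% higher and 6.71% either way of 19772 tested genes. A log2 ratio of at least 1 in size was met by 2 of the 3, against 0.961% of all tested genes (0 of the 8 on MS, against 0.658%). At an unadjusted p below 0.05, 4 of the 8 passed, all of them lower in 6-6. The fourth was NRT3.1, with 301 FPKM in 6-6 NaCl and 355 FPKM in WT NaCl in the authors' deposited table (log2 ratio -0.24, p = 0.0179, q = 0.148). The share of all tested genes at that unadjusted threshold was not counted, so no excess is read from the 4 of 8.

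The remaining genes were not called between the lines on NaCl. NIA1 had 51.5 FPKM in 6-6 NaCl and 58.6 FPKM in WT NaCl (q = 0.307), NIA2 had 206 FPKM in 6-6 NaCl and 234 FPKM in WT NaCl (q = 0.38), and NIR1 had 336 FPKM in 6-6 NaCl and 368 FPKM in WT NaCl (q = 0.578) in the authors' deposited table. NRT1.1 had 369 FPKM in 6-6 NaCl and 379 FPKM in WT NaCl in the authors' deposited table (q = 0.91). The median log2 ratio was -0.21 over the 8 tested genes and -0.05 over all tested genes. Of the xylem and stele markers 1, the phosphate exporter gene PHO1, was lower in 6-6 on NaCl (log2 ratio -0.34). Of all tested genes, 3.67% were lower. At an unadjusted p below 0.05, 2 of the 6 markers passed, and the median log2 ratio of the 6 was -0.10. With the deposited statistic taken as a normal deviate, 0 of the 6 were called. Their summed level was 385 FPKM in 6-6 NaCl and 440 FPKM in WT NaCl. The part of these cells in the NRT1.5 and NRT1.8 results was not tested.

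On MS, 1 of 8 tested genes was called between the lines. NIA1 had 20.4 FPKM in 6-6 MS and 28.6 FPKM in WT MS in the authors' deposited table, a log2 ratio of -0.49 (q = 0.00396). Of all 19465 tested genes 3.02% were called either way, 1.89% lower and 1.13% higher. The NIA1 call was lost with the statistic taken as a normal deviate, which called 0 of the 8 and 0.596% of all tested genes. NRT2.1 had 2.57 FPKM in 6-6 MS and 3.55 FPKM in WT MS in the authors' deposited table (log2 ratio -0.47, p = 0.012, q = 0.174). NRT1.8 had 0.679 FPKM in 6-6 MS and 0.927 FPKM in WT MS in the authors' deposited table (log2 ratio -0.45, q = 0.898). Neither was called, which does not show that the lines were alike.

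NRT1.5 had 162 FPKM in 6-6 MS and 189 FPKM in WT MS (q = 0.394), NRT3.1 had 135 FPKM in 6-6 MS and 127 FPKM in WT MS (q = 0.835), and NIA2 had 91.9 FPKM in 6-6 MS and 94.5 FPKM in WT MS (q = 0.949) in the authors' deposited table. NIR1 had 172 FPKM in 6-6 MS and 180 FPKM in WT MS (q = 0.893), and NRT1.1 had 350 FPKM in 6-6 MS and 392 FPKM in WT MS (q = 0.632) in the authors' deposited table. The median log2 ratio was -0.20 over the 8 tested genes and -0.07 over all tested genes.

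The salt ratios of the 2 lines can be set side by side, although their difference could not be tested without values per sample. For NRT1.8 the log2 salt ratio was 4.07 in 6-6 and 4.96 in WT, a difference of -0.89. For NRT2.1 it was 4.03 in 6-6 and 4.57 in WT, a difference of -0.55, and for NRT3.1 it was 1.11 in 6-6 and 1.43 in WT, a difference of -0.33. NIA1 had the widest difference the other way, with 1.29 in 6-6 and 0.99 in WT, a difference of 0.30. For NRT1.5, NIA2, NIR1 and NRT1.1 the differences were -0.17, -0.14, -0.06 and 0.13. Each group enters 2 of the 4 comparisons, so a line difference on NaCl and the difference of the salt ratios are not separate evidence.

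**Figure D3:**
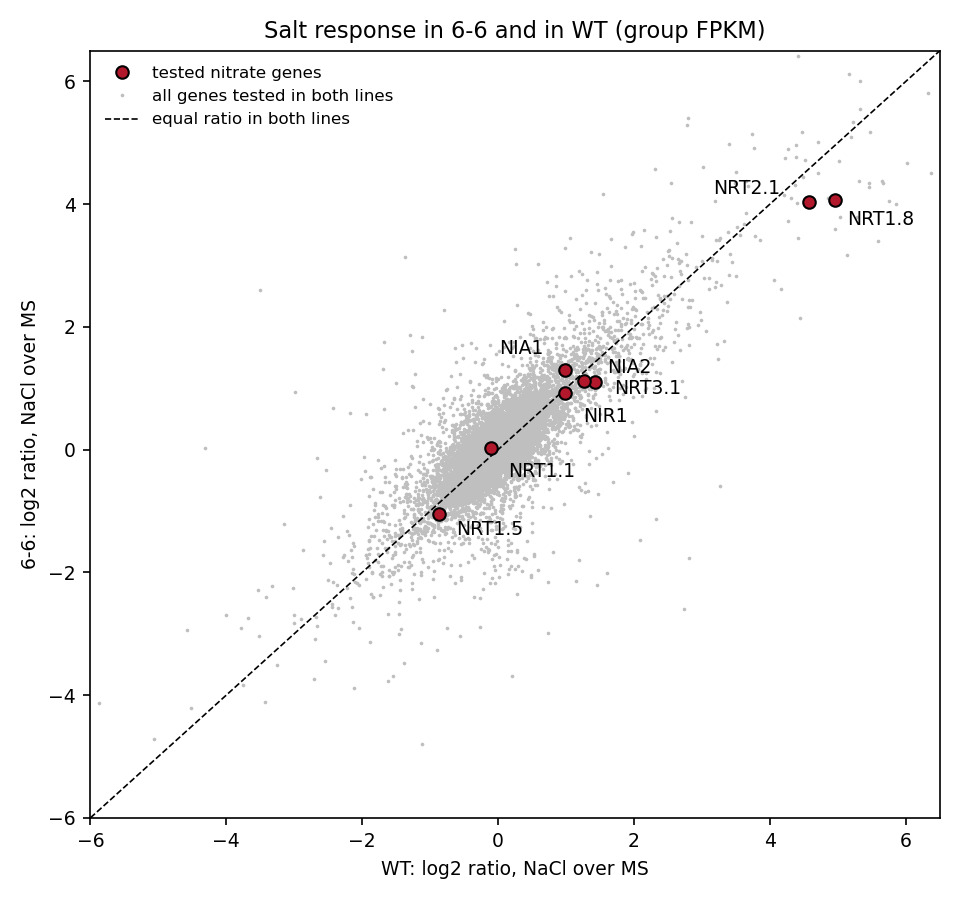
Log2 salt ratio in 6-6 (vertical axis) against that in WT (horizontal axis) for 19479 genes tested in both lines with finite ratios, of which 3 lie outside the axes; the 8 tested nitrate genes are marked and named. NRT1.8 and NRT2.1 lie at the high end and below the diagonal of equal ratios, NRT1.5 lies at the lower left and NRT1.1 near 0.

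The rest of the nitrogen pathway held calls in both directions. The 5 lists besides the 10 genes hold 86 genes, of which 19 of 75 tested rose and 14 fell with salt in 6-6, and 23 of 76 rose and 11 fell in WT, beside shares over all tested genes of 13.7% higher and 10.4% lower in 6-6 and 11.3% higher and 10.5% lower in WT. With the statistic taken as a normal deviate, 15 genes were called in 6-6, 10 of them higher, and 18 in WT, 16 of them higher. That reading called 10.1% of all tested genes in 6-6 and 8.44% in WT, in either direction. The list closest to the reductases, 12 genes for the cofactors and the reductant of nitrate reduction, had 7 rises and 0 falls in 6-6 and 8 rises and 0 falls in WT, with medians of 0.36 in 6-6 and 0.51 in WT, and the other reading of the statistic called 4 genes in 6-6 and 6 in WT. Its leading genes were the root ferredoxin-NADP reductases, which pass electrons to the ferredoxin that NIR1 uses. RFNR2 had 464 FPKM in 6-6 NaCl and 243 FPKM in 6-6 MS, and 533 FPKM in WT NaCl and 271 FPKM in WT MS in the authors' deposited tables (log2 ratios 0.93 in 6-6 and 0.98 in WT). RFNR1 had log2 salt ratios of 1.00 in 6-6 and 0.84 in WT, and G6PD3, a glucose-6-phosphate dehydrogenase gene in a shared locus, had 0.63 in 6-6 and 0.81 in WT.

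Of 19 other nitrate transporter genes, 4 of 15 tested rose and 2 fell in 6-6, and 5 rose and 1 fell in WT. Of all tested genes, 13.7% rose and 10.4% fell in 6-6, and 11.3% rose and 10.5% fell in WT, so the falls lie near these shares. The median log2 ratio of the list was 0.07 in 6-6 and 0.08 in WT, against 0.03 in 6-6 and 0.01 in WT over all tested genes. The other reading of the statistic called 3 genes in each line, against 10.1% of all tested genes in 6-6 and 8.44% in WT. NPF6.4 had 16.3 FPKM in 6-6 NaCl and 3.36 FPKM in 6-6 MS, and 17.3 FPKM in WT NaCl and 4.22 FPKM in WT MS in the authors' deposited tables (log2 ratios 2.27 in 6-6 and 2.03 in WT). NRT1.7, which loads nitrate into the phloem of leaves, rose by 2.79 in 6-6 and 3.03 in WT on the log2 scale, from levels below 1 FPKM on MS. SLAH2, a nitrate channel of the root stele, rose by 1.07 in 6-6 and 0.75 in WT, NPF3.1 (in a shared locus) by 1.02 in 6-6 and 0.69 in WT, and NPF6.2 (in a shared locus) by 0.33 in WT. NPF1.2 (-0.58) and the vacuolar nitrate exchanger CLC-A (-0.49, in a shared locus) fell in 6-6, and AT3G45680 (-0.57) fell in WT. NPF3.1 and the WT rise of NPF6.2 were named after their values were seen.

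Among 15 genes of ammonium assimilation, 2 of 14 tested rose and 2 fell in 6-6, and 5 rose and 1 fell in WT. The 6-6 count lies near the share of 24.1% of all tested genes called in that line, against 21.8% in WT, and the other reading of the statistic called 2 genes in 6-6 and 4 in WT. The glutamine synthetase GLN1;2 rose in both lines, with 2974 FPKM in 6-6 NaCl and 1714 FPKM in 6-6 MS, and 3020 FPKM in WT NaCl and 1674 FPKM in WT MS in the authors' deposited tables. The GLN1 genes are similar copies, and no source used here says how reads common to them were counted. GLN1;5 rose in WT (log2 ratio 0.73) and GLN1;4 fell in both lines (-0.66 in 6-6 and -0.84 in WT). The NADH-dependent glutamate synthase GLT1 rose in both lines (log2 ratios 0.56 in 6-6 and 0.72 in WT), while the ferredoxin-dependent GLU1 fell in 6-6 (-0.84). ASN1, an asparagine synthetase, rose in WT (log2 ratio 3.74), and its 6-6 levels of 1.78 FPKM on NaCl and 0.0502 FPKM on MS in the authors' deposited table were not called (q = 0.263). Of 6 ammonium transporter genes, 4 were tested: AMT1;3 rose in both lines (0.67 in 6-6 and 0.66 in WT), AMT1;2 fell in both (-0.44 in 6-6 and -0.39 in WT), and AMT1;1, in a shared locus, fell in 6-6 (-0.69). The other reading of the statistic called 2 of these in 6-6 and 1 in WT. Of all tested genes, that reading called 10.1% in 6-6 and 8.44% in WT. By q, 13.7% of all tested genes rose and 10.4% fell in 6-6, and 11.3% rose and 10.5% fell in WT.

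Of 34 signalling and regulator genes, 5 of 30 tested rose and 8 fell in 6-6, and 4 of 31 rose and 8 fell in WT. Of all tested genes, 13.7% rose and 10.4% fell in 6-6, and 11.3% rose and 10.5% fell in WT. The counts of rises thus lie near the share over all tested genes, and those of falls above it. The other reading of the statistic called 4 genes in each line, against 10.1% of all tested genes in 6-6 and 8.44% in WT. BT1 and BT2, BTB domain proteins known to lower NRT2 expression, rose in both lines (log2 ratios 0.67 and 0.84 in 6-6, 0.70 and 0.87 in WT). NLP1, of the NIN-like family of nitrate response factors, rose by 0.60 in each line, and NLP5, in a shared locus, fell in 6-6 (-0.54). HRS1, a factor known to bind and repress NRT2 promoters, fell in both lines (-0.33 in 6-6 and -0.54 in WT), as did HY5, a bZIP factor known to promote root NRT2.1 expression (-0.74 in 6-6 and -0.51 in WT). The glutaredoxin family gene AT1G06830 fell by 1.33 in 6-6 and by 2.22 in WT on the log2 scale.

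Between the lines on NaCl, 10 of 76 tested genes of these lists were lower and 0 were higher in 6-6, beside 3.67% lower and 3.04% higher of all tested genes. At an unadjusted p below 0.05, 23 of the 76 passed, 3 of them higher and the rest lower in 6-6. With the statistic taken as a normal deviate, 0 were higher. The 10 were NPF1.2 (log2 ratio -0.59), NPF6.2 (-0.40), CLC-A (-0.34), GLN1;1 (-0.53), GLU1 (-0.99), G6PD2 (-0.44), G6PD3 (-0.39), BT1 (-0.50), NLP2 (-0.36) and the myb family gene AT3G25790 (-0.35). On that other reading of the statistic 1 gene was called, against 1.04% of all tested genes. On MS, 1 of 73 was lower, HRS1 (log2 ratio -0.41, q = 0.0183), beside 1.89% lower of all tested genes, and 0 were higher. At an unadjusted p below 0.05, 11 of the 73 passed on MS, and 0 of them were higher in 6-6. The share of all tested genes at that unadjusted threshold was not counted on either medium. The other reading of the statistic called 0 of the 73 on MS, against 0.596% of all tested genes, so the HRS1 call was lost.

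**Figure D4:**
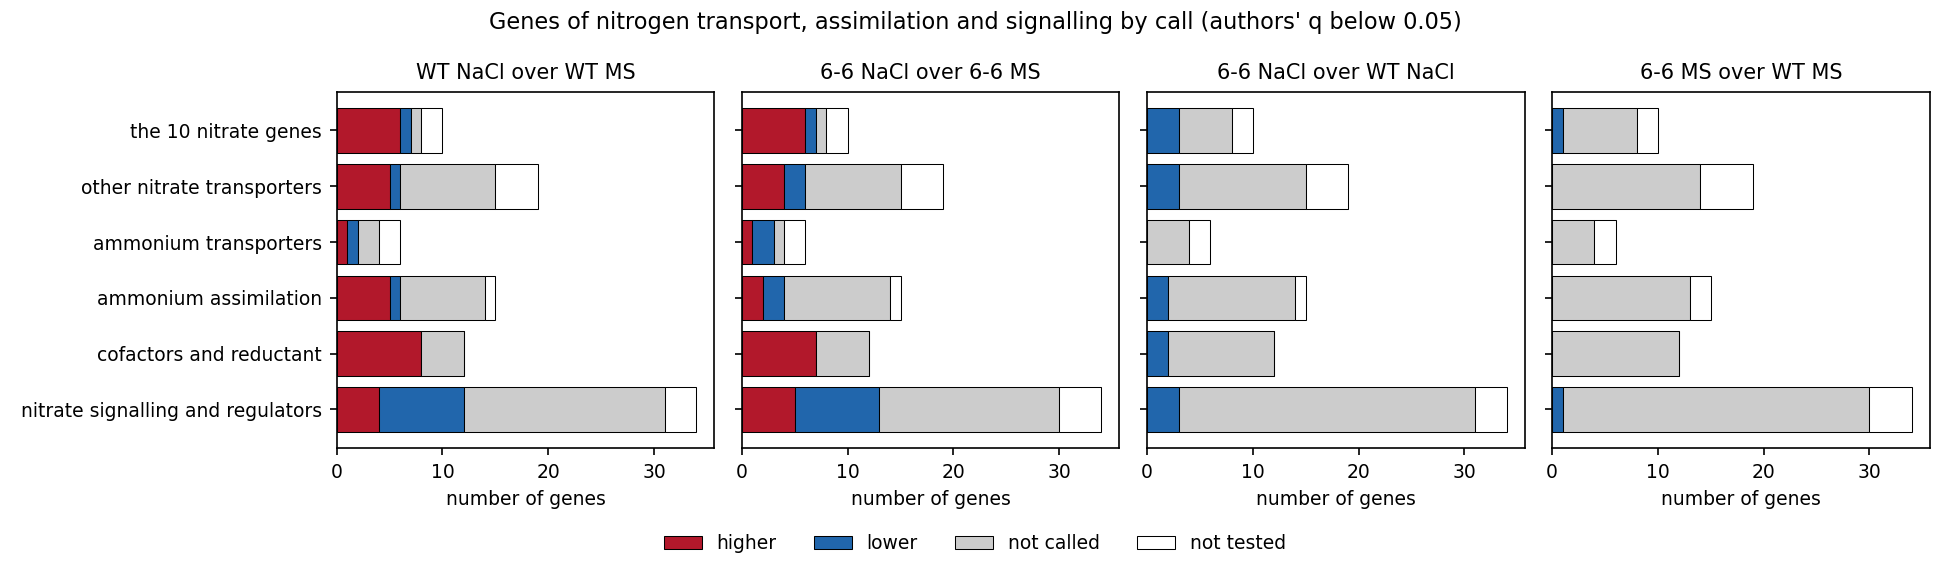
Number of genes called higher and lower (authors' q below 0.05) among the 10 nitrate genes and in each of the 5 other nitrogen lists, for the 4 comparisons. In the comparisons of 6-6 with WT no gene of these lists was called higher, while the salt comparisons hold calls in both directions in all but 1 list, that of cofactors and reductant.

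Genes of green tissue moved with salt beside the nitrate genes. All 6 green tissue markers (LHCB1.3, LHCB2.1, RBCS1A, GAPA, RCA, PSAF) rose in both lines, none was at 0 in any group, and their summed level was 182 FPKM in 6-6 NaCl and 77.5 FPKM in 6-6 MS, and 262 FPKM in WT NaCl and 105 FPKM in WT MS. Between the lines 1 of the 6 was lower in 6-6 on NaCl (186 FPKM summed in 6-6 NaCl and 265 FPKM in WT NaCl) and 3 were lower on MS (76.5 FPKM in 6-6 MS and 103 FPKM in WT MS). Of 5 epidermis and root hair markers, 2 rose with salt in each line and 1 was higher in 6-6 on NaCl. Of 5 endodermis markers, 3 fell in 6-6, 1 rose and 2 fell in WT, and 1 was lower in 6-6 on NaCl. The other reading of the statistic called all 6 green tissue markers with salt in each line, and 1 between the lines on either medium. With salt it called 2 epidermis markers in 6-6 and 1 in WT, and 1 endodermis marker in 6-6 and 0 in WT. Between the lines on NaCl it called 0 epidermis markers and 1 endodermis marker. By q, 24.1% of all tested genes were called with salt in 6-6 and 21.8% in WT. Between the lines, q called 3.67% of all tested genes lower and 3.04% higher in 6-6 on NaCl. On MS it called 1.89% lower and 1.13% higher in 6-6. The other reading called 10.1% of all tested genes with salt in 6-6 and 8.44% in WT. Between the lines it called 1.04% on NaCl and 0.596% on MS. The part of these cell types in the nitrate results was not tested.

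The genes with the most similar pattern were found by Euclidean distance over the 4 log2 ratios. Candidates were genes tested in all 4 tables with a mean of at least 5 FPKM, a locus of their own and a gene symbol. Genes known only by a locus code could therefore not be named, even where they lie nearer. For NRT1.8 the nearest of 5632 genes was NRT2.1 (distance 0.51), followed by IGMT4 (1.95) and ALD1 (2.02). For NRT2.1, NRT1.8 was no candidate because of its shared locus, although the distance between the 2 is the same 0.51. The nearest candidates of NRT2.1 were IGMT4 (1.46), ALD1 (1.59) and the glutathione transferase GSTF6 (1.73). GSTF6 had log2 salt ratios of 4.37 in 6-6 and 3.64 in WT, and IGMT4 had 3.55 in 6-6 and 3.38 in WT, so in both the order of the lines differed from that of the 2 nitrate genes, while ALD1 had 3.48 in 6-6 and 3.78 in WT. For NIA1 the nearest were 3 photosynthesis genes, LHCB5 (0.13), PETC (0.14) and PSBW (0.19). For NRT1.1 they were PBS2 (0.02), GLE1 (0.03) and WIN2 (0.03), whose 4 ratios lay between -0.16 and 0.03. These distances rest on 4 ratios made from 4 groups.

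The 300 bases before the annotated start of each of the 10 genes were read from the TAIR10.1 genome. They were searched on both strands for 7 motifs, and 27437 windows of protein-coding genes taken the same way were searched alongside. GAATC, the motif bound by HRS1 and its relatives, was found before 6 of the 10 genes (NRT2.1, NRT2.2, NRT2.4, NRT3.1, NIA1 and NIR1) and in 45% of all windows. The palindrome GAATATTC was found before NRT2.4 alone of the 10, and in 1.02% of all windows. TTGAC, the core of the W-box of WRKY factors, was found before 7 of the 10 and in 50.4% of all windows. ACGTG, the core of the abscisic acid response element, was found before NIA2 alone, and in 25.6%, while CACGTG, which contains it, was found before 0 of the 10 and in 7.09%. The core site GACNCTT of NIN-like factors was found before 0 of the 10 and in 8.54%, and the longer nitrate-responsive element, the same letters followed after 10 bases by AAG, before 0 of the 10 and in 0.164%. A match is a string of letters and not a shown binding site, and its absence covers these windows only.

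The windows of 4 genes are given 5′ to 3′ on the strand of the gene, with GAATC or its reverse complement GATTC in capitals. The NRT2 pair is shown because its 2 genes stood far apart in level in WT NaCl, and the xylem pair because it was called in opposite directions. The windows are chr1:2523723-2524022 (plus strand) for NRT2.1, chr1:2529121-2529420 (minus strand) for NRT2.2, chr1:11719989-11720288 (minus strand) for NRT1.5 and chr4:11519806-11520105 (minus strand) for NRT1.8, in RefSeq TAIR10.1.
NRT2.1: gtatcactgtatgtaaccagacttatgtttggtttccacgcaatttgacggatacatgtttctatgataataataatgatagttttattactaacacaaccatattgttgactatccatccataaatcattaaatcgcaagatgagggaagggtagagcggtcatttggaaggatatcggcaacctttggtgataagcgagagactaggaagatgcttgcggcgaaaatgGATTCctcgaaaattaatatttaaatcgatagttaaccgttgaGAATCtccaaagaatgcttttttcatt
NRT2.2: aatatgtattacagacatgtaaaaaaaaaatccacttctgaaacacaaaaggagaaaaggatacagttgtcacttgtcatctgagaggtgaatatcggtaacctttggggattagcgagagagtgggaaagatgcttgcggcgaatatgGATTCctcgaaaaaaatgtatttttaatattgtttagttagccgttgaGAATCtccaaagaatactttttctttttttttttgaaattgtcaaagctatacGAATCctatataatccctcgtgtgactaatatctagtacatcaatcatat
NRT1.5: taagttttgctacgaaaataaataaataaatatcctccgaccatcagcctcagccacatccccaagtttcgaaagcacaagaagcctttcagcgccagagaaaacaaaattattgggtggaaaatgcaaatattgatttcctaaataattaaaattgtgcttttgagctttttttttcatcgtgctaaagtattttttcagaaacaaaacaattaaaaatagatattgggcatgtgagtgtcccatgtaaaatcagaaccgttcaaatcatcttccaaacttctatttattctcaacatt
NRT1.8: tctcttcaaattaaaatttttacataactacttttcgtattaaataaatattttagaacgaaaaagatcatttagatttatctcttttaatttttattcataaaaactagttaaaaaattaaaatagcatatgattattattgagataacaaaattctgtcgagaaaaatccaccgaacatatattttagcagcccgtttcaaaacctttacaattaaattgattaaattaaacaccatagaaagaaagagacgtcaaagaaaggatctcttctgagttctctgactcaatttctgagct

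NRT2.1 holds the motif at 2 places, 70 to 66 and 27 to 23 bases before its start, and NRT2.2 at 3 places, 151 to 147, 103 to 99 and 50 to 46 bases before its start. The NRT1.5 and NRT1.8 windows hold none. The NRT2.1 and NRT2.2 windows matched in 139 of 179 aligned columns (77.7%), from 168 to 6 bases before the NRT2.1 start and from 260 to 82 bases before the NRT2.2 start. Both NRT2.1 places and the first 2 NRT2.2 places lie in these stretches. The third NRT2.2 place lies past its stretch, where the NRT2.1 window has almost no bases left, so the 2 and 3 places do not cover like sequence. The pair thus resembled each other upstream as well as in the coding sequence, while WT NaCl had 86.4 FPKM of NRT2.1 and 0.0162 FPKM of NRT2.2 in the authors' deposited table. For NRT1.5 and NRT1.8 the best local match was 31 of 45 columns (68.9%), and their coding sequences matched in 64.9% of aligned columns.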

How the data were processed

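RNA-seq was made from 12 samples in 4 groups. Per the submitters' processing notes HISAT2, HTSeq and edgeR were used with genome build TAIR10, with no role or version given. The 4 deposited tables have, per the file headers, the layout of Cuffdiff gene output, and hold for each gene the authors' FPKM of 2 groups. The tables also hold a test statistic, which the authors deposited as a signed score, with a deposited p-value and q-value. The columns used hold 1 value per group, and 0 columns of single samples were set aside; the depth of the samples is unknown.

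From these, log2 ratios were computed from the 2 deposited FPKM values with no pseudocount, and calls were made on the authors' q-value below 0.05. The deposited q equals Benjamini-Hochberg adjustment of the deposited p within 5.29e-07. No test over samples could be fitted. The adjustment code was tested on simulated data. Alternatives were a q below 0.01, the test statistic read as a two-sided normal deviate, a mean of at least 1 FPKM, leaving out genes in a shared locus, a log2 ratio of at least 1 in size, log2(FPKM + 1), log2(FPKM + 0.1), centring on the median gene, and group values from the other tables.

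The 10 genes, the other lists, the markers and the tests were chosen with earlier results of these data known. Besides the 10 genes, ITPK4 and CPL1, the text names from each list the called genes of largest size, at most 3 higher and 3 lower per comparison, and the 3 nearest patterns of 4 genes; genes named beyond this rule were chosen after their values were seen. Sequences come from RefSeq TAIR10.1. All 23004 protein-coding genes alone in their locus overlapped the RefSeq gene of the same code. Of these, 41.6% had the same start, the same end or both in RefSeq, and 16% had the same start and end. The upstream windows were placed by the RefSeq start, so motif positions and absences hold for that start only. Windows placed by the deposited loci were not searched. Python 3.11.15, pandas 2.3.3, numpy 2.4.6, scipy 1.17.1, matplotlib 3.10.9 and Biopython 1.88 were used. The p-values may measure only technical spread, since no label says that samples were separate cultures.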

Additional observations from a re-analysis of the deposited data

How the results depend on the processing

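The main counts of called genes were 7 for NaCl against MS in 6-6, 7 for NaCl against MS in WT, 3 for 6-6 against WT on NaCl and 1 for 6-6 against WT on MS. Requiring a log2 ratio of at least 1 in size left 4 in WT (NRT1.5, NIA1 and NIR1 were lost) and 0 between the lines on MS. Reading the test statistic as a normal deviate left 0 between the lines on MS, where NIA1 was lost. There 2 genes had an unadjusted p below 0.05, with no share of all tested genes counted at that threshold. The same reading left 2 on NaCl, where NRT1.5 was lost. The other 17 of 20 alternative counts, that last one among them, stayed within 1.5 times the main count; leaving out the locus that NRT1.8 shares took that gene from 3 of the 4 counts. Of 128 alternative log2 ratios, no called value changed sign and 2 moved by more than the limit set, both NRT1.8 with log2(FPKM + 1): 2.89 for 6-6 salt and 3.97 for WT salt, where the added 1 exceeds its level on MS. Centring moved no ratio by more than 0.07 and the other tables none by more than 0.05. Centring turned the sign of 2 uncalled ratios near 0, NRT1.1 in 6-6 against WT on NaCl (0.02, against -0.04) and NIA2 in 6-6 against WT on MS (0.03, against -0.04), and brought NRT1.1 with salt in 6-6 and NIR1 between the lines on MS to 0.00. No paired analysis was possible because the files used hold 1 combined value per group, and for the same reason no replicate was left out. NRT2.2 and NRT2.4 were tested in no table, and what depth limits cannot be given, since it is unknown.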

Other observations

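The NRT2 genes NRT2.3, NRT2.5 and NRT2.6 were as scarce as NRT2.2 and NRT2.4 and were tested in no comparison. In the authors' deposited tables NRT2.3 was listed at 0 in 6-6 NaCl, 6-6 MS and WT MS and at 0.0486 FPKM in WT NaCl. NRT2.5 had 0.0284 FPKM in 6-6 NaCl and was listed at 0 in 6-6 MS, and had 0.0255 FPKM in WT NaCl and was listed at 0 in WT MS, in the authors' deposited tables. NRT2.6 had 0.104 FPKM in 6-6 NaCl and was listed at 0 in 6-6 MS, and had 0.306 FPKM in WT NaCl and 0.0666 FPKM in WT MS, in the authors' deposited tables. NRT2.7, known as a carrier of the seed vacuole, was tested and not called, with 1.87 FPKM in 6-6 NaCl and 2.2 FPKM in 6-6 MS (q = 0.652), and 1.73 FPKM in WT NaCl and 2.07 FPKM in WT MS (q = 0.734), in the authors' deposited tables. NRT2.1 was thus the one NRT2 gene of these 7 with a level above 3 FPKM in any group.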
